A study of Saccharomyces cerevisiae with 4 samples.

Results

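The transcript levels described here come from 2 cultures of budding yeast (Saccharomyces cerevisiae) that carried an empty expression plasmid. They are the 2 arrays of the series of 4 whose labels give the plasmid without an insert. All 5498 probe sets listed for exactly 1 S. cerevisiae gene were ranked, of 10928 on the array, which is the Affymetrix Yeast Genome 2.0 design. A probe set is a group of short DNA probes that together report 1 transcript.

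Per the labels, both cultures were of strain BY4741, a haploid laboratory strain of mating type a (MATa). Its labelled genotype has deletions in 4 genes, ura3∆0 and leu2∆0 as well as his3∆1 and also met15∆0. They carried p425-GPD, a multicopy plasmid with the LEU2 selection marker and the promoter of a glycolytic gene. The cells grew at 30 °C in synthetic complete medium lacking leucine, and RNA was taken in mid-log phase. The other 2 arrays of the series, of the same strain with the plasmid carrying an RNase H1 insert, were not compared here. The duplicates are labelled as biological replicates. With 1 group of 2 arrays there is nothing to test, so every value below is a description with no p-value.

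A yeast cell growing fast on glucose ferments it to ethanol even when oxygen is present, and glucose represses genes for respiration, for other sugars and for making glucose. Such a cell spends much of its transcription on ribosomes and on the proteins that help to make and fold new protein. Haploid cells express the genes of their own mating type and keep the genes of meiosis and spore formation, a diploid programme, turned down.

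Signals are linear intensities made with the MAS5 algorithm. They summed to 7097920 on array 1 and 7074865 on array 2 over all probe sets, and the median S. cerevisiae probe set had 564 and 575. The array also carries probe sets for the distant fission yeast S. pombe, whose RNA was not in the sample. The 1746 probe sets annotated for 1 gene that matched no S. cerevisiae gene were taken as S. pombe probe sets. Their 95th percentile on each array, 6.15 and 6.84, was taken as the background. By that measure 5389 of the 5498 probe sets (98%) were above background on both arrays and 109 (1.98%) were not. Probe sets differ in how brightly they bind their transcript, so the ranking orders signals and not numbers of molecules. Control probe sets for different fragments of 1 gene also differed in brightness. The 3′ fragment of ACT1 was 1.41 and 1.40 times as bright as its 5′ fragment on the 2 arrays. That of SRB4 was 18.2 and 18.1 times as bright. Other control genes differed from these. For RIP1 the 3′ fragment was the dimmer, at 490 and 523 against 612 and 742 for the 5′ fragment. For WBP1 the gap changed between the arrays, with 3657 and 3108 at the 3′ fragment and 1249 and 1451 at the 5′ fragment. Probe binding and a loss of signal towards the 5′ end of the RNA cannot be told apart in these values. Among 47 genes with more than 1 probe set, the brightest and dimmest differed by a median of 1.80-fold and by over 2-fold in 21 genes. For AAD4, a member of the aryl-alcohol dehydrogenase family, 1 probe set gave 22.2 and the other 578. Nearly all of these genes, 45 of 47, had a probe set that can bind several transcripts.

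The distribution of levels was broad and had 1 main hump. Half-way down the ranking the mean signal (the mean of the log2 signals, turned back to the linear scale) was 570. The 10th percentile was 83.3 and the 90th was 3056. Most probe sets, 3210 (58.4%), lay between 100 and 1000. The 1645 probe sets between 1000 and 10000 (29.9%) carried 70.8% of the summed signal, and the 38 above 10000 carried 6.37%. Only 149 (2.71%) lay below 10.

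**Figure D1:**
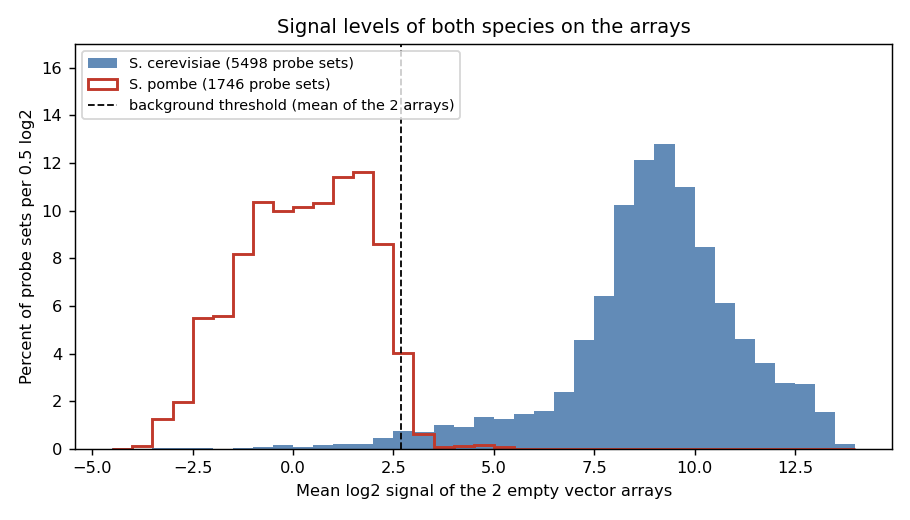
Histogram of the mean log2 signal of the 2 empty vector arrays (x axis) against the percent of probe sets per 0.5 log2 (y axis), for the S. cerevisiae probe sets (filled) and the S. pombe probe sets (outline), with the background threshold as a dashed line. The S. pombe probe sets lie almost wholly left of the line and 98% of the S. cerevisiae probe sets right of it.

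The markers named in the genotype were read first, since they check the labels. URA3, an enzyme of pyrimidine synthesis on chromosome V (116167 to 116970, R64 annotation), had signals of 0.325 and 0.183, far below background. Its 3 further fragments among the control probe sets were also not above background. MET17, the sulphydrylase also called MET15, had 4.01 and 3.98, again below background. HIS3 had 3288 and 3443 and was among the brighter genes. The labelled allele his3∆1 is an internal deletion that leaves part of the gene in place. LEU2, deleted in the genome and supplied by the plasmid, had 12568 and 12870 and ranked 6th of all.

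One gene went against the labelled genotype. LYS2, which encodes aminoadipate reductase of the lysine pathway (chromosome II, 469748 to 473926), had 3.16 and 2.45, below background on both arrays, although the genotype names no deletion of it. The other 7 lysine synthesis probe sets were above background, from LYS12 at 3457 and 3168 down to LYS5 at 388 and 434. Whether the gene was absent or its probe set does not respond was not tested. With LYS2 the median of the lysine list was 1249, and over the other 7 it was 1607.

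The mating type genes followed the label. All 7 a-specific probe sets were above background. The receptor for alpha-factor, STE2, had 7352 and 7527, and the 2 genes for a-factor itself, MFA2 and MFA1, had 5935 and 6124, and 4824 and 4813. The dimmest, ASG7, had 781 and 749. The alpha-specific genes were lower. The alpha-factor genes MF(ALPHA)1 and MF(ALPHA)2 had 8.39 and 20.3, and 21.9 and 23.6, and the a-factor receptor STE3 had 33.6 and 41.5. The agglutinin SAG1 stood above them at 374 and 405. All 4 were above the background threshold, so their signals cannot be called absent, but 3 of 4 lay in the dimmest 10% of the ranking. At the cassettes, HMRA1 and HMRA2, which share their sequence with the a genes of the active locus, had 263 and 373, and 470 and 486. HMLALPHA1, from the silent alpha cassette, had 6.27 and 8.21, just above the threshold.

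**Figure D2:**
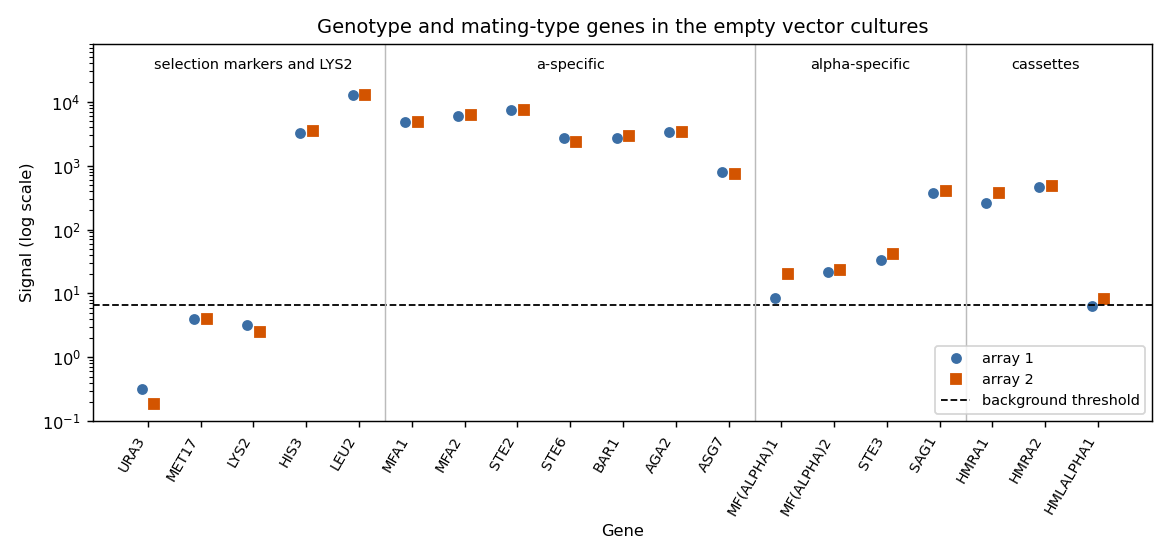
Signal on each array (y axis, log scale) of the selection markers and LYS2, the a-specific genes, the alpha-specific genes and the silent cassette genes (x axis), with the background threshold dashed. URA3, MET17 and LYS2 lie below the line on both arrays, and the a-specific genes lie between 749 and 7527.

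At the top of the ranking stood genes of glycolysis and ribosomes, and actin. GPM1, phosphoglycerate mutase, was brightest at 13612 and 13194, followed by actin, ACT1, at 12966 and 12868. The ribosomal protein RPS21B had 13150 and 12583. The glyceraldehyde-3-phosphate dehydrogenase TDH3 had 13144 and 12547, and the phosphoglycerate kinase PGK1 12840 and 12636. Of these 5, TDH3 differed most between the arrays, by 1.05-fold. They crowd into a narrow band, and the 20 brightest probe sets all lay above 10000. CUP1-1, a copper-binding metallothionein that lies in tandem copies, was 9th at 11744 and 12144. Of the brightest 100 probe sets, 60 were for cytosolic ribosomal proteins. Another 33 were in one of the other functional lists used here. The 7 in none were EGD1, TMA19, IPP1, BMH1, HOR7, GSP1 and YDR316W-B, which are named for that reason after their values were seen. EGD1 is a subunit of the nascent polypeptide-associated complex, IPP1 the inorganic pyrophosphatase, BMH1 a 14-3-3 protein and GSP1 the Ran GTPase of nuclear transport.

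Protein synthesis filled the upper end more than any other function looked at. The 148 probe sets of cytosolic ribosomal proteins are 2.69% of those ranked, and 141 of them were in the brightest 10% of the ranking (550 probe sets). They carried 16.6% of the summed S. cerevisiae signal on array 1 and 16.4% on array 2, 16.5% ± 0.136 (SD, n = 2). The large-subunit proteins had a median of 7500, led by RPL3, RPL2A and RPL7A at 11272 and 11167, 11327 and 11016, and 10711 and 10885. The small-subunit proteins had a median of 7469. The exceptions were few. RPL41A, whose product is among the smallest proteins of the cell, had 101 and 158, and RPL15B had 971 and 956, while the dimmest of the small subunit, RPS9A, had 2512 and 2609. Ribosomal proteins are mostly encoded by near-identical gene pairs, and how far a probe set of 1 copy also binds the other was not tested.

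The machinery around the ribosome was lower in steps. The 19 cytosolic tRNA synthetases, which load amino acids onto tRNAs, had a median of 4566 and ranged from DED81 (6179 and 6126) to WRS1 (2447 and 2170). The 37 translation factors had a median of 3122. TEF2, elongation factor 1 alpha, had 11361 and 11371, whereas HEF3, an alternative form of elongation factor 3, had 83.2 and 75.1 and ANB1, the form of eIF5A made in low oxygen, had 266 and 261. Ribosome assembly factors had a median of 1072 over 63 probe sets, with NHP2 (6322 and 6966), SNU13 and NOP1 as the brightest. The RNA polymerase I and III subunits stood at 1181 and those of RNA polymerase II at 1865. The mitochondrial ribosome, 69 probe sets, had a median of 811, and none was in the brightest 10%.

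**Figure D3:**
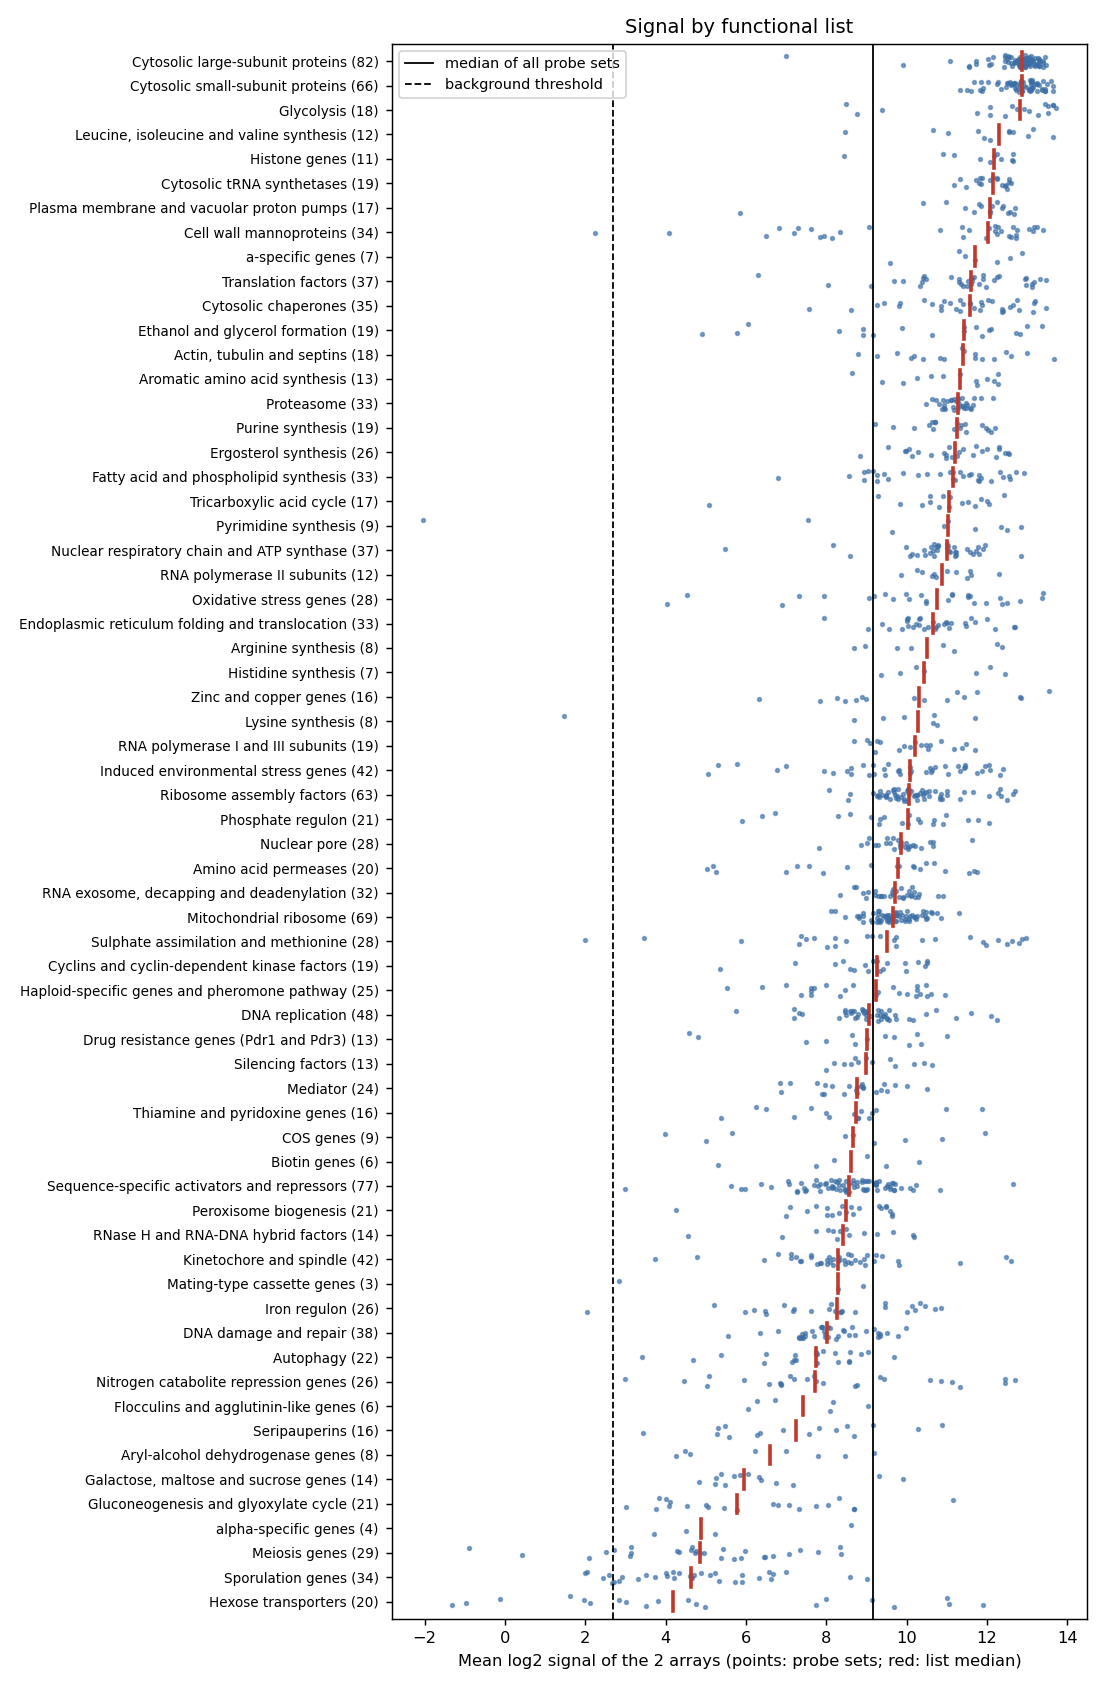
Mean log2 signal (x axis) of every probe set in 64 functional lists (y axis, number of probe sets in brackets, sorted by median), with the list median in red, the median of all probe sets as a solid line and the background threshold dashed. Ribosomal protein, glycolysis and branched-chain amino acid lists are at the top, and meiosis, sporulation and hexose transporters at the bottom.

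Sugar metabolism split sharply between the glucose branch and its alternatives. Glycolysis had a median of 7244 over 18 probe sets, 15 of them in the brightest 10%. Its dim members were minor isoforms: GPM2 had 301 and 433, GPM3 465 and 411, and the pyruvate kinase PYK2 592 and 753 beside CDC19, the main pyruvate kinase, at 11502 and 11866. The fermentation genes held the same kind of contrast. PDC1, pyruvate decarboxylase, had 10568 and 10674 and ADH1, which makes ethanol, had 8429 and 8006, while ADH2, which consumes ethanol, had 60.2 and 72.4 and PDC6 had 30.0 and 29.8. Gluconeogenesis and the glyoxylate cycle had a median of 55.1, with FBP1, fructose-1,6-bisphosphatase, at 13.9 and 12.9 and MLS1, malate synthase, at 19.7 and 12.9. Of its 21 probe sets 11 were in the dimmest 10%, and the cytosolic malate dehydrogenase MDH2 alone was bright, at 2263 and 2319. The galactose, maltose and sucrose genes had a median of 61.9, with the galactose enzymes GAL10 at 36.2 and 39.5 and GAL1 at 132 and 159, and the repressor GAL80 at 966 and 950.

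The hexose transporters spanned the whole range. HXT3 and HXT1, transporters of glucose at high concentration, had 3729 and 3924, and 2056 and 2195, and HXT7, a high-affinity transporter, had 1779 and 2388. HXT2 had 894 and 765. At the other end HXT13, HXT15 and HXT10 had signals between 0.253 and 7.56 over both arrays. Only 13 of 20 probe sets were above background, and the median of 18.0 was the lowest of all the lists. That median depends on the dim members, since over the 13 above background it was 214. With only the brightest probe set of each gene the median was 26.9, above that of the sporulation genes at 24.6.

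Respiration was not at the bottom. The tricarboxylic acid cycle had a median of 2136 and the respiratory chain with ATP synthase, as far as nuclear genes encode it, 2052, both well above the overall 570. ACO1, aconitase, had 5406 and 5532 and ATP1, a subunit of the ATP synthase, 7331 and 7461. CIT3, a second mitochondrial citrate synthase, had 30.5 and 37.3, NDE2, an external NADH dehydrogenase, 42.3 and 47.5, and CYC7, the minor form of cytochrome c, 258 and 321. No probe set was listed for a gene of the mitochondrial genome.

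Of the lists for building blocks, those for amino acids and nucleotides had medians above the overall 570, and the leucine branch was the highest of the amino acid lists. The vitamin lists lay below it: thiamine and pyridoxine genes had a median of 424, with 3 of 16 probe sets above the overall median, and biotin genes 388, with 2 of 6. The leucine, isoleucine and valine list had a median of 5039, and 9 of its 12 probe sets were in the brightest 10%. After plasmid-borne LEU2 came the acetohydroxyacid reductoisomerase ILV5 (9512 and 8681) and the isopropylmalate isomerase LEU1 (8188 and 8329), and the pathway's regulator LEU3 was dimmest at 366 and 338. The medians of the aromatic, arginine and histidine lists were 2563, 1452 and 1369, and the lysine list is given above. GCN4, the activator of amino acid synthesis genes, was by far the brightest of 77 regulators at 6371 and 6382. It is known to be controlled mainly at translation, which the arrays do not measure. The regulators as a whole had a median of 375, and DAL80, a repressor of nitrogen genes, was dimmest at 8.53 and 7.39. Pyrimidine synthesis had a median of 2100 with URA1 at 7508 and 7251, purine synthesis 2455, and sulphate assimilation and methionine 722, where the sulphate permease SUL1 had 10.7 and 11.3. Without URA3, deleted in this strain, the pyrimidine median was 2646 over the other 8 probe sets. Without MET17, also deleted, the sulphate and methionine median was 816 over the other 27.

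The lists of genes that respond to nutrients each held both bright and dim members. In the phosphate list the transporter PHO84 had 3581 and 3460 while PHO89 had 97.9 and 72.8. In the nitrogen list, which has a median of 209, the ammonium-assimilating enzymes GDH1 (5714 and 5505) and GLN1 (5456 and 5753) were bright and the allantoin genes DAL1 and DAL4 had 24.4 and 19.6, and 36.4 and 31.0. ASP3-1, an asparaginase with several copies, headed that list at 6700 and 6599. The iron regulon had a median of 310, led by the ferroxidase FET3 (1769 and 1955), and the reductase FRE5 was not above background at 3.78 and 4.40. ZRT1, the high-affinity zinc transporter, was bright at 6934 and 7923.

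The cell surface and the lipids of membranes were well represented. The cell wall mannoproteins had a median of 4130 and a wide spread, from CCW12 (10831 and 10754) and SCW4 (10264 and 9187) to the anaerobic mannoprotein DAN1, below background at 4.12 and 5.50. The proton pumps had a median of 4306. The plasma membrane ATPase PMA1 had 5292 and 5446, but its relative PMA2 had 46.3 and 71.5. Ergosterol synthesis had a median of 2339 and fatty acid and phospholipid synthesis 2271, with ACC1, acetyl-CoA carboxylase, at 7733 and 7637 and FAS1 at 6675 and 6854. The flocculins, adhesins of the cell surface, had a median of 170, with FLO1 at 62.6 and 69.7 and FLO11 at 105 and 105.

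Among the proteins of folding and turnover, the chaperones had a median of 3072 with the ribosome-bound SSB1 at 11178 and 11280, and the stress-induced SSA3 was dimmest at 185 and 195. The proteasome kept to a narrow range: its 33 probe sets ran from PRE6 (4409 and 4594) to SEM1 (1421 and 1456), all above the overall median. Autophagy had a median of 215, and ATG16 had 8.63 and 13.1. Histones had a median of 4632, with HTA2 and HTA1 brightest, and the centromeric histone CSE4 had 366 and 325. Many genes of the cell cycle are on for only part of it. Cyclins and their kinase factors had a median of 608 and DNA replication 530, near the overall median. Kinetochore and spindle genes were lower at 314, with 8 of 42 probe sets above the overall median, and so was DNA damage and repair at 257.

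The native RNase H genes, whose products degrade RNA paired with DNA, lay below the median of all probe sets, 570, except for RNH203. RNH1 had 320 and 292. Of the subunits of RNase H2, the catalytic RNH201 had 274 and 303, RNH202 had 389 and 366, and RNH203 had 1293 and 1038. Of the 14 probe sets for RNase H and factors that act on RNA-DNA hybrids, 4 lay above the overall median, and TOP3 was dimmest at 32.5 and 16.8.

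Meiosis and sporulation, the diploid programme, had the lowest medians after the hexose transporters when every probe set was counted. Meiosis genes had a median of 28.8, and 21 of 29 probe sets were in the dimmest 10%. Of the 29 meiosis probe sets, 23 were above background, 79.3% against 98% of all. Of these, MEI5, CSM4 and SAE3 were not above background and had signals of at most 4.90 on either array. IME1, which starts meiosis, was higher at 146 and 122. Sporulation genes had a median of 24.6, 27 of 34 were above background, and SPS2 and OSW1, which act in building the spore wall, had 4.12 and 3.88, and 4.14 and 4.13. SPR6, also a sporulation gene by name, was an exception at 529 and 505.

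The 109 probe sets not above background were a mixed group. Of them, 58 (53.2%) belong to genes without a name in the annotation, against 9.24% of all probe sets, and 37 were for genes under 300 bp, 33.9% against 4.42% of all. In one of the functional lists were 25, 22.9% against 28.1% of all. The median gene length of the 109 was 498 bp against 1230 bp over all. Of the 109, 36 were above background on 1 array only, so the class has a soft edge. Just outside were REC8, a meiotic cohesin (5.55 and 13.9), and VAM10 (7.43 and 6.25). Just inside were HXT14 (6.28 and 8.12) and HMLALPHA1, given above. A signal at this level is not a measure of zero: it was not detectable above what the S. pombe probe sets gave.

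Genes without a name were dimmer by their median, although 17 of their probe sets were in the brightest 10% of the ranking. Their 508 probe sets had a median of 170 (164 on array 1 and 171 on array 2) against 612 for the 4990 of named genes. Not above background were 11.4% of the unnamed and 1.02% of the named. Length and signal were almost unrelated along the whole ranking (Spearman's rho -0.0444 over 5498 probe sets of the same arrays), but both ends held shorter genes. Median length was 934.5 bp in the brightest of 10 equal classes of the ranking, 892 bp in the dimmest, and between 1335 and 1465.5 bp in the 5 classes in the middle.

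Genes near the chromosome ends were dimmer. Distance was taken to the start of the chromosome sequence or to the end of its last annotated gene, whichever was nearer. The 84 probe sets of genes within 10 kb of an end had a median of 56.4. Of them, 59.5% were in the dimmest 10% of the ranking (549 probe sets, 9.99% of all). From 10 to 20 kb the median was 144, from 20 to 30 kb it was 323, and from 30 kb inwards it lay between 581 and 613. Both arrays gave the same order, with 57.2 and 61.0 in the outermost class. Without the probe sets that can bind several transcripts, over the 130 specific ones, the median within 20 kb was 96.3, against 582 beyond. Some genes at the ends were bright, chosen after their values were seen: COS2, the brightest of its subtelomeric family, had 4010 and 3934, HXK1, hexokinase I, 2978 and 3914, and ERG13, an enzyme of sterol synthesis, 3698 and 3868. Of the subtelomeric families, the seripauperins had a median of 151, with 2 of 16 probe sets above the median of all probe sets. The COS genes had a median of 403, with 4 of 9 above it. Medians by chromosome ranged from 445 on chromosome I to 657 on chromosome V. Neighbouring genes were hardly alike in level, with Pearson's r of 0.0863 over 5402 pairs, and no finding is drawn from it.

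**Figure D4:**
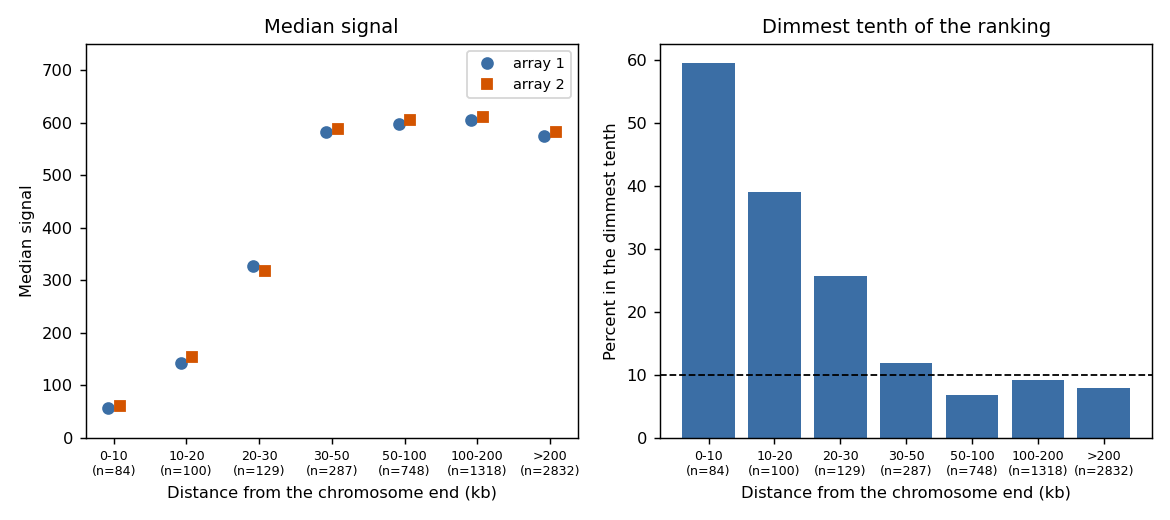
Left, median signal of each array (y axis) by distance of the gene from the chromosome end (x axis, kb, number of probe sets in brackets). Right, the percent of those probe sets in the dimmest 10% of the ranking, with 10% dashed. On arrays 1 and 2 the median rises from 57.2 and 61.0 within 10 kb to 583 and 589 between 30 and 50 kb and then stays level.

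The 2 cultures gave nearly the same profile. Over the 5389 probe sets above background the signals had a median of 1.08-fold between the arrays, a median SD of 0.0744 and a pooled SD of 0.165 on the log2 scale. Pearson's r of the log2 signals was 0.993, a description across genes, which are not independent replicates. Agreement fell with the signal: the median SD was 0.0205 above 10000, 0.0521 between 1000 and 10000, 0.0821 between 100 and 1000, and 0.176 between 10 and 100. Over 1.5-fold apart were 135 probe sets (2.51%), 85 higher on array 2 (1.58%) and 50 higher on array 1 (0.928%), and 94 of the 135 had signals between 10 and 100. Over 2-fold apart were 33 (0.612%).

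Among bright probe sets a few stood out. INO1, the enzyme that makes inositol phosphate and is repressed by inositol in the medium, had 298 on array 1 and 1578 on array 2, 5.30-fold higher. ZPS1, a cell surface protein induced when zinc is short, had 1997 and 5972, 2.99-fold higher on array 2. The 16 zinc and copper genes as a list had a median difference, array 2 minus array 1, of 0.04 on the log2 scale, against 0.03 over all probe sets above background. On the other side, YBL100W-A had 4037 and 174, 23.2-fold higher on array 1, and YAR010C had 8590 and 3515. Both of those probe sets can bind several transcripts. Of the 122 probe sets of that kind above background, 15 were over 1.5-fold apart, against 120 of 5267 specific ones. At lower signals, below the 25th percentile of the ranking (269), ENT4 (187 and 87.3) and NUT2 (169 and 81.4), a subunit of Mediator, were higher on array 1. Dim genes filled the rest of the list: AAR2, a splicing factor, had 64.9 and 19.5, VEL1 8.62 and 26.7, and the galactose transporter GAL2 8.55 and 22.7.

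Some functions shifted together between the cultures, by small amounts. The median difference, array 2 minus array 1, was 0.03 on the log2 scale over all probe sets above background, of which 57.2% were higher on array 2. For the 42 genes of the induced environmental stress response it was 0.29, and 37 were higher on array 2. GLK1, glucokinase, had 3822 and 4777, and the secreted glycoprotein YGP1 3843 and 4637. HSP12, the brightest of the list, went the other way with 5662 and 5212. For the 63 ribosome assembly factors the median difference was -0.14, and 53 were higher on array 1. Among them RRP5 had 2656 and 1557 and UTP7 1028 and 676, both chosen for their size after the values were seen. The RNA polymerase I and III subunits had -0.08, and 17 of 19 were higher on array 1, as with RPA190 at 3235 and 2516. The ribosomal proteins of the large subunit had -0.0042, with 43 of 82 higher on array 1, and those of the small subunit -0.03, with 46 of 66 higher on array 1. In all, 12 of the 65 lists lay more than 0.1 from the overall median. The hexose transporters had 0.37, with 11 of 13 higher on array 2, the galactose, maltose and sucrose genes 0.24 (12 of 14), the alpha-specific genes 0.21 (4 of 4) and the mating-type cassettes 0.39 (3 of 3). Most of those are dim genes, and all probe sets with signals between 10 and 100 had a median difference of 0.12. None of the 42 stress genes was over 1.5-fold apart. The labels do not say how the cultures differed in density or handling. The control transcripts also differed: all 36 B. subtilis poly-A control probe sets were higher on array 1, by a median of 2.13-fold. So were all 27 E. coli and phage hybridisation controls, by a median of 1.24-fold. In 1 group of 7 control probe sets for the yeast's own ribosomal RNA, 5 were higher on array 1. The difference was 4.71-fold for 5.8S (3647 and 775) and 1.66-fold for the 5′ fragment of 18S (5128 and 3091). Further ribosomal RNA probe sets outside this group went both ways, with 18S fragments at 3473 and 1490, and at 432 and 464. The part of all these controls in the differences between the arrays was not tested.

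**Figure D5:**
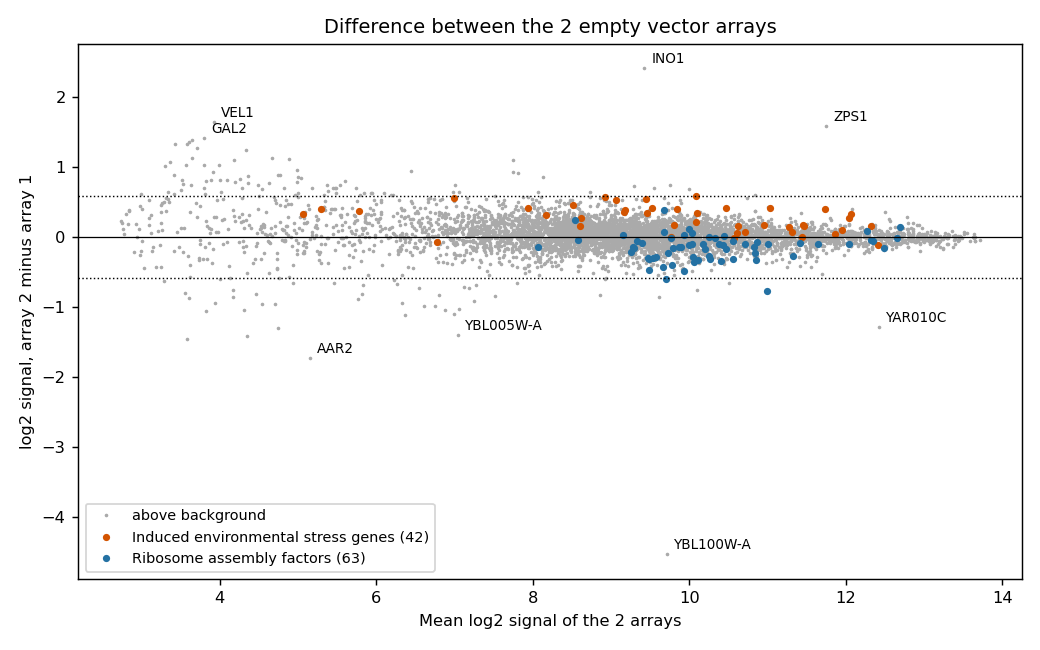
Difference of the log2 signals, array 2 minus array 1 (y axis), against the mean log2 signal (x axis) for the 5389 probe sets above background, with the stress genes in orange, the ribosome assembly factors in blue and 1.5-fold as dotted lines. The spread narrows towards bright signals, orange points lie mostly above 0 and blue points mostly below it, and INO1, ZPS1 and YBL100W-A stand apart.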

How the data were processed

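RNA from duplicate cultures was measured on 1 array each, after in vitro transcription for 8 h (input 150 ng of RNA), per the labels. The authors deposited linear intensity signals, 1 per probe set and array, made with Affymetrix Expression Console and MAS5, per the submitters' processing notes. To what level MAS5 scaled each array is not stated in the labels. The number of arrays limits the precision. Gene names came from the array annotation and the R64 RefSeq table, which updated 12 symbols. Probe sets of other kinds (3470 without annotation, 213 controls or reporters, 1 with several genes) were left out of the ranking.

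From these signals, log2 means, SDs over n = 2 and ranks were computed with pandas 2.3.3 and numpy 2.4.6 in Python 3.11.15. No scaling or pseudocount was added. Background was the 95th percentile of S. pombe probe sets on each array, needed on both. No test was run, since only 1 group is described. The steps were tested on simulated data.

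Members, gene lists and descriptions were chosen with earlier results of these data known. Genes were named by rule: the 20 brightest; per list up to 4 brightest and 3 dimmest; the 12 largest differences between arrays in each direction among probe sets above background; the 6 nearest the threshold on each side; the 6 genes whose probe sets differ most; and URA3, LEU2, HIS3, MET17, ACT1, TDH3 and the RNase H genes. LYS2 is the dimmest lysine gene. Alternatives were other thresholds, pseudocounts, scalings, specific probe sets and leaving out each array.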

Additional observations from a re-analysis of the deposited data

Results flagged for a closer look

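Signal also appeared outside the ranked probe sets. Of 3470 probe sets with no gene in the annotation used here, 280 (8.07%) were above background on both arrays. Of these, 42 were at 1000 or more, and the highest was at 9667. The species of the 3470 could not be read here. Their median signal was 1.38, against 1.25 for the S. pombe probe sets. Of 47 reporter probe sets 10 were above background, with a highest mean signal of 3767. Of the 1746 S. pombe probe sets, which set the threshold, 29 were above it on both arrays. The brightest of these were act1 at 36.8 and 29.6, hta1 at 21.2 and 40.7, and gua1 at 18.4 and 30.1, all dim beside the S. cerevisiae median.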

How the results depend on the processing

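The number of probe sets not above background moved most with the threshold: 109 at the 95th percentile of the S. pombe probe sets, 62 at the 75th and 177 at the 99th. With either array alone it was 84 or 98, and the number above background was 5400 or 5414. At the 75th percentile MET17 passed as above background, so 2 of the 3 genes URA3, MET17 and LYS2 were then below it, and at the 99th all 3 were; both thresholds were chosen for that check after seeing the data. The count of probe sets over 1.5-fold apart, 135, was 54 with a pseudocount of 16, 27 with 64, 206 with no filter on dim signals, and 38 over mean signals of 100 or more, a limit chosen after seeing the data. Quantile and median scaling gave 124 and 131. The share of genes within 20 kb of a chromosome end that was not above background was 8.15%, 14.7% at the 99th percentile, and 7.07% to 8.15% with either array alone. Lists with a median above that of all probe sets numbered 39 of 65, and 39 to 40 with either array alone. List medians moved over 1.5-fold in 1 list when the brightest probe set of each gene was used (aryl-alcohol dehydrogenases, 2.30-fold) and in 1 when dim probe sets were left out (hexose transporters, 11.9-fold). The lists over 0.1 from the overall difference between arrays numbered 9 after quantile scaling and 8 with a pseudocount of 16. The cause of these moves was not tested. No paired analysis was possible because only 1 group of arrays is described. Signals near the background limit what can be said of dim genes.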
